A study of Mus musculus with 12 samples.

Results

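The genes described here encode 10 enzymes that remove superoxide and peroxides: the superoxide dismutases *Sod1*, *Sod2* and *Sod3*, catalase (*Cat*), the glutathione peroxidases *Gpx1*, *Gpx3* and *Gpx4*, and the peroxiredoxins *Prdx1*, *Prdx5* and *Prdx6*. They were taken by gene symbol from the gene count table of whole-lung RNA-Seq, where each symbol matched 1 of 55487 genes, and all 10 were among the 45828 genes that passed the expression filter. The lungs came from *miR-30a* -/- C57BL/6J mice, in which the *miR-30a* region had been deleted in the germline with CRISPR/Cas9, so all 12 animals lacked *miR-30a* in every cell type. Pups breathed 95% FiO2 (hyperoxia) or room air from postnatal day (PND) 1 to PND 5 and were euthanized on PND 21, 16 days after the exposure ended. There were 4 groups of 3 lungs: room air females, hyperoxia-exposed females, room air males and hyperoxia-exposed males. Pups of several litters had been pooled and redistributed between the exposures, and the litter of each lung is not given in the sources used here. Wild-type lungs were not analysed here, so no value below compares *miR-30a* -/- lungs with lungs that have *miR-30a*.

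Superoxide dismutases convert superoxide to hydrogen peroxide. Catalase, glutathione peroxidases and peroxiredoxins then reduce hydrogen peroxide, and several of the last 2 families also reduce lipid peroxides. The enzymes work in different places: SOD1 and catalase in the cytosol and peroxisomes, SOD2 in the mitochondrial matrix, and SOD3 and GPX3 outside the cell. In the lung these enzymes are the first line against the oxidants that breathing high oxygen produces, and the comparison asks what their transcripts were weeks after the oxygen had ended, in each sex.

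The lungs had 8763033 to 16741694 gene-assigned reads each, of which the 10 enzymes held 0.0947% to 0.182%. The lowest count of any of the 10 in any lung was 124, for *Prdx5*, so that counting error alone came to at most 8.98% of a value. *Mir30a* had 0 counts in all 12 lungs, but a short RNA is not expected to be counted in such libraries, so this does not check the genotype. Between 0.435% and 1.00% of the counts of a library lay on 1766 olfactory and vomeronasal receptor genes, which lung cells hardly express. This receptor share is given below as a measure of the libraries. The share was also a covariate in an alternative fit, but whether it accounts for any difference was not tested. It was 0.435% to 0.786% in room air females, 0.710% to 0.899% in hyperoxia-exposed females, 0.681% to 0.955% in room air males and 0.547% to 1.00% in hyperoxia-exposed males. One library stood apart in its muscle transcripts: the 9 skeletal muscle markers summed to 1741 CPM in room air male 1 and to 90.7 to 137 CPM in the other 11 lungs. The repeat-like locus *Gm10800* alone took 6.04% to 23.8% of the counts. As for the tissue, none of the alveolar type 2 cell markers was at 0 in any lung, and the summed level of these 9 markers was 5527 to 13857 CPM (counts scaled to a common, upper-quartile normalised library size).

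Promoter sequences were looked at as a description of the 10 genes, and no link between them and the levels was tested. RefSeq promoter windows on GRCm38.p6, from 250 bases before to 50 bases after a transcript start, were found for 8 of the 10 genes, and *Sod3* and *Prdx6* had none. The core of the antioxidant response element, through which NRF2 acts, was searched for as TGACNNNGC on both strands. It was present in the windows of 2 of the 8 genes, *Sod1* and *Prdx1*, and in 14.0% of the 27025 genes with a window. A GC box (GGGCGG on either strand) was present in all 8, and in 38.2% of all genes. A CCAAT box (CCAAT on either strand) was present in 5 of the 8, and in 41.1% of all genes. The TATA box core (TATAAA on either strand) was present in 2 of the 8, and in 15.7% of all genes. These shares cover all genes with a window, expressed in lung or not. Both matches to the antioxidant response element lie on the reverse strand, with the first base at -133 from the transcript start in *Prdx1* and at -56 in *Sod1*. The windows of these 2 genes are shown with the match in capitals, *Sod1* from chr16:90220512-90220811 and *Prdx1* from chr4:116685349-116685648, both on the plus strand.
Sod1: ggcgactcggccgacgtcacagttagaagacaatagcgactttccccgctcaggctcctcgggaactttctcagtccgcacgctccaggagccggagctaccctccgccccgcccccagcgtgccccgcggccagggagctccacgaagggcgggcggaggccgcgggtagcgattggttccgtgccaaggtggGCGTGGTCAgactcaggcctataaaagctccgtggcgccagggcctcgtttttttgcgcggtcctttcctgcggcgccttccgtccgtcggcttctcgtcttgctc
Prdx1: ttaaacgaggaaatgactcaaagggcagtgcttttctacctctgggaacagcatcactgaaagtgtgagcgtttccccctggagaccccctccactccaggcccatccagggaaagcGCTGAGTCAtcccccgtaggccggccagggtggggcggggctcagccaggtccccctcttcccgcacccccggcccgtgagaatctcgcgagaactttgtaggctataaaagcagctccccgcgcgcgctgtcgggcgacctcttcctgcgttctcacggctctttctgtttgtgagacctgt
These matches are letters in a window, and binding there was not measured.

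The 10 transcripts spanned a wide range of levels (in CPM per kb of exon, which allows genes to be compared). *Gpx3*, the secreted glutathione peroxidase, stood highest at 210 ± 56.0 CPM per kb (SD, n = 12), above *Gpx1* in 12 of 12 lungs. Next came *Gpx1* at 68.6 ± 18.9, *Cat* at 61.1 ± 14.6, *Prdx6* at 58.7 ± 15.5 and *Sod3* at 49.3 ± 13.8 CPM per kb. Neighbours among these 4 did not differ beyond their spread: *Gpx1* exceeded *Cat* in 9 of 12 lungs, *Cat* exceeded *Prdx6* in 7, and *Prdx6* exceeded *Sod3* in 10. *Prdx1* (25.6 ± 6.23), *Sod1* (13.9 ± 3.42) and *Gpx4* (10.9 ± 1.30 CPM per kb) followed, each below the one before it in 12 of 12 lungs. *Prdx5* (6.83 ± 0.60) and *Sod2* (6.39 ± 1.02 CPM per kb) were the lowest of the 10 and kept their order in 9 of 12 lungs. The level of *Sod2* per kb depends on its long gene model of 10008 exon bases, so that its place in the order rests on the annotation. Background at the density of the receptor genes would account for 0.56% of the *Gpx3* counts, 2.37% or less for *Sod3*, *Cat*, *Gpx1* and *Prdx6*, 4.61% for *Prdx1*, 8.41% for *Sod1*, 10.9% for *Gpx4*, 17.5% for *Prdx5* and 18.5% for *Sod2*.

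**Figure D1:**
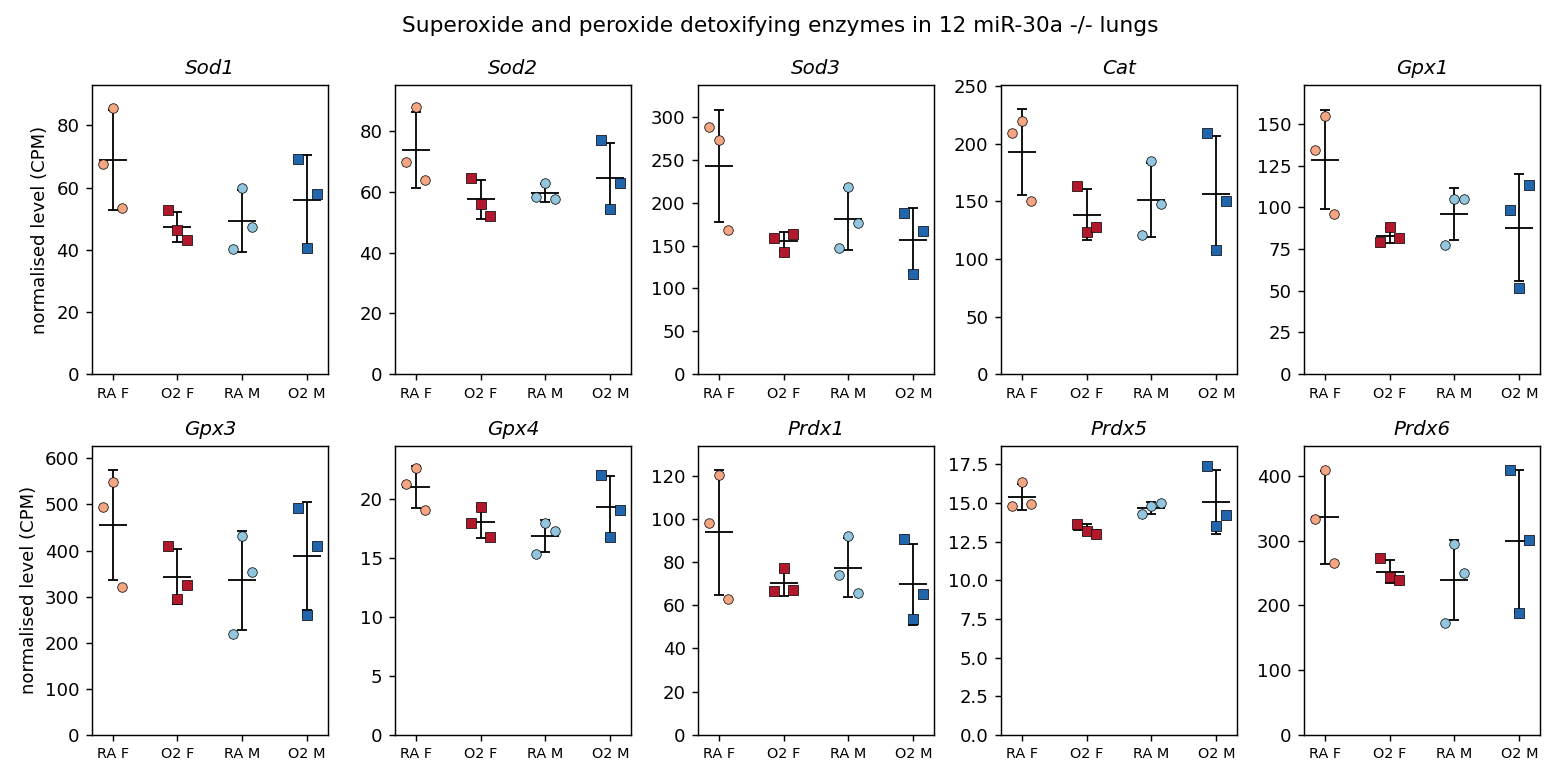
Level of each of the 10 enzymes in each lung, in normalised counts (CPM) on a linear axis from 0. Points are single lungs (circles room air, squares hyperoxia; F females, M males, RA room air, O2 hyperoxia), and black bars are the mean ± SD of 3 lungs. In females 4 of the 10 genes had all hyperoxia-exposed lungs below all room air lungs, against 6.42% of all genes and 15.6% of those with a mean of at least 10 CPM. In males the exposures overlapped for all 10, and 3.89% of all genes were lower without overlap.

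After hyperoxia, none of the 10 enzymes differed from room air at the threshold used, an adjusted p under 0.05 with a fold change over 1.5, in females, in males or in both sexes together. In females all 10 estimates were below 0, from a log2 fold change of -0.65 for *Sod3* to -0.21 for *Prdx5*, whereas in males 7 were above 0 and 3 below, from -0.20 for *Sod3* to 0.32 for *Prdx6*. The 3 genes that stood out most in females were *Sod3*, *Gpx1* and *Sod1*. The values per lung follow, by enzyme family.

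*Sod3* encodes the extracellular superoxide dismutase, which is bound to the matrix of vessels and airways and is abundant in lung. The gene lies on chromosome 5 from 52363791 to 52371418. Its level was 288, 274 and 168 CPM in the room air females, and 159, 142 and 163 CPM in the hyperoxia-exposed females. All 3 exposed females lay below all 3 room air females, although the nearest lungs were 168 and 163 CPM. The room air males had 148, 219 and 177 CPM and the hyperoxia-exposed males 188, 116 and 167 CPM, which overlap. The log2 fold change was -0.65 ± 0.25 (SE, adjusted p = 0.357, edgeR quasi-likelihood test) in females, -0.20 ± 0.25 (adjusted p = 1.00) in males and -0.43 ± 0.18 (adjusted p = 0.927) in both sexes. The 95% interval for both sexes ran from -0.79 to -0.06, and *Sod3* had the lowest of the 10 estimates in each of these 3 comparisons.

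*Sod1*, on chromosome 16 from 90220754 to 90226329, encodes the cytosolic copper-zinc enzyme. The room air females had 67.4, 85.4 and 53.5 CPM and the hyperoxia-exposed females 52.7, 46.3 and 43.1 CPM. The exposed females were again all lower, by less than 1 CPM at the closest pair. The room air males had 40.3, 60.0 and 47.4 CPM and the hyperoxia-exposed males 69.3, 40.7 and 58.0 CPM, with the exposures overlapping. *Sod1* had a log2 fold change of -0.54 ± 0.21 (adjusted p = 0.357) in females and 0.19 ± 0.21 (adjusted p = 1.00) in males. The gene model overlaps *Scaf4*, and 3.42% of its 50-base words occur in *Gm8566*.

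*Sod2*, on chromosome 17 from 13006846 to 13040063, encodes the manganese enzyme of mitochondria, which many inflammatory and oxidant stimuli induce. The room air females had 69.7, 87.9 and 63.8 CPM and the hyperoxia-exposed females 64.6, 56.0 and 52.1 CPM, which overlap by 1 lung. The room air males had 58.2, 63.0 and 57.7 CPM and the hyperoxia-exposed males 76.9, 54.2 and 62.8 CPM. The log2 fold change was -0.36 ± 0.19 (adjusted p = 0.407) in females, 0.12 ± 0.19 in males and -0.12 ± 0.13 in both sexes. Without room air female 5 the values for *Sod2* were -0.21 in females and -0.046 in both sexes. The interval for both sexes, -0.39 to 0.15, does not include a 1.5-fold difference in either direction. That for females alone, -0.74 to 0.02, does include a 1.5-fold decrease. Of the 50-base words in *Sod2* exons, 21.0% occur in other genes as well, so part of its counts may depend on how shared reads were assigned.

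*Cat*, on chromosome 2 from 103453849 to 103485160, encodes catalase, the peroxisomal enzyme that is also plentiful in red cells. The room air females had 209, 220 and 151 CPM and the hyperoxia-exposed females 164, 123 and 128 CPM. The room air males had 121, 185 and 148 CPM and the hyperoxia-exposed males 209, 108 and 150 CPM. In both sexes the exposures overlapped. The log2 fold change of *Cat* was -0.48 ± 0.25 (adjusted p = 0.410) in females and 0.05 ± 0.25 in males.

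The glutathione peroxidases described here are selenoproteins that use glutathione to reduce peroxides. *Gpx1*, the cytosolic form, lies on chromosome 9 from 108338903 to 108340343. The room air females had 135, 155 and 96.1 CPM and the hyperoxia-exposed females 79.2, 88.1 and 81.7 CPM, without overlap. The room air males had 77.7, 105 and 105 CPM and the hyperoxia-exposed males 98.5, 51.8 and 113 CPM, so that the lowest and the highest male lungs were both hyperoxia-exposed. *Gpx1* had a log2 fold change of -0.63 ± 0.24 (adjusted p = 0.357) in females, -0.12 ± 0.24 in males and -0.38 ± 0.17 (adjusted p = 0.927) in both sexes.

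*Gpx3*, on chromosome 11 from 54902453 to 54910377, had 495, 549 and 321 CPM in the room air females and 410, 294 and 325 CPM in the hyperoxia-exposed females. It had 219, 433 and 353 CPM in the room air males and 492, 261 and 409 CPM in the hyperoxia-exposed males. The exposures overlapped in both sexes, and the log2 fold change was -0.41 ± 0.30 in females and 0.21 ± 0.30 in males. Room air male 1, the library with the high muscle markers, had the lowest level of *Gpx3*, and of *Sod1*, *Gpx4* and *Prdx6*, among the 12 lungs, and without it the male estimate for *Gpx3* was -0.017. The female estimate for *Gpx3* was -0.25 without room air female 5 and -0.61 without room air female 6. *Gpx4*, the phospholipid hydroperoxidase that guards against ferroptosis, lies on chromosome 10 from 80047166 to 80056439. It had 19.1 to 22.6 CPM in the room air females, 16.8 to 19.3 CPM in the hyperoxia-exposed females, 16.9 ± 1.37 CPM (SD, n = 3) in the room air males and 16.8 to 22.1 CPM in the hyperoxia-exposed males. Its estimate for both sexes was the closest to 0 of the 10, -0.01 ± 0.10, with an interval of -0.22 to 0.20 that excludes a 1.5-fold difference. That estimate averages a log2 fold change of -0.22 ± 0.14 in females and 0.20 ± 0.14 in males. Of the 50-base words of *Gpx4* 34.7% also occur in 2 other genes, *Gpx4-ps2* among them, so its level is uncertain.

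The peroxiredoxins reduce peroxides with a cysteine of their own. *Prdx6*, which also has phospholipase activity and takes part in surfactant phospholipid turnover, lies on chromosome 1 from 161240112 to 161251219. The room air females had 333, 409 and 265 CPM, the hyperoxia-exposed females 273, 244 and 240 CPM, the room air males 173, 295 and 250 CPM and the hyperoxia-exposed males 409, 188 and 301 CPM. The sexes pointed in opposite directions with wide errors: the log2 fold change was -0.41 ± 0.28 (adjusted p = 0.489) in females and 0.32 ± 0.28 (adjusted p = 1.00) in males. The male value ran from 0.036 without hyperoxia-exposed male 1 to 0.58 without hyperoxia-exposed male 2, and the female value from -0.56 without room air female 6 to -0.25 without room air female 5. *Prdx1*, a cytosolic peroxiredoxin, lies on chromosome 4 from 116685544 to 116700822. It had 98.1, 120 and 62.7 CPM in the room air females and 66.7, 77.1 and 67.0 CPM in the hyperoxia-exposed females. In the room air males it had 74.2, 92.3 and 65.8 CPM, and in the hyperoxia-exposed males 90.5, 53.8 and 65.0 CPM. Its exposures overlapped in both sexes, and its log2 fold change was -0.42 ± 0.23 in females and -0.15 ± 0.23 in males. Without room air female 5 the female value for *Prdx1* was -0.20, and without room air female 6 it was -0.64. *Prdx5*, found in mitochondria, peroxisomes and cytosol, lies on chromosome 19 from 6906697 to 6910106. It varied least of the 10, with a coefficient of variation of 8.84% over the 12 lungs against 28.1% for *Sod3*. It had 14.8, 16.3 and 14.9 CPM in the room air females and 13.6, 13.2 and 12.98 CPM in the hyperoxia-exposed females, without overlap, and a log2 fold change of -0.21 ± 0.14 in females and 0.04 ± 0.14 in males. The *Prdx5* gene model overlaps *Trmt112*, with which it shares 15.5% of its 50-base words, and the strand setting of the counting is not given in the sources used here.

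**Figure D2:**
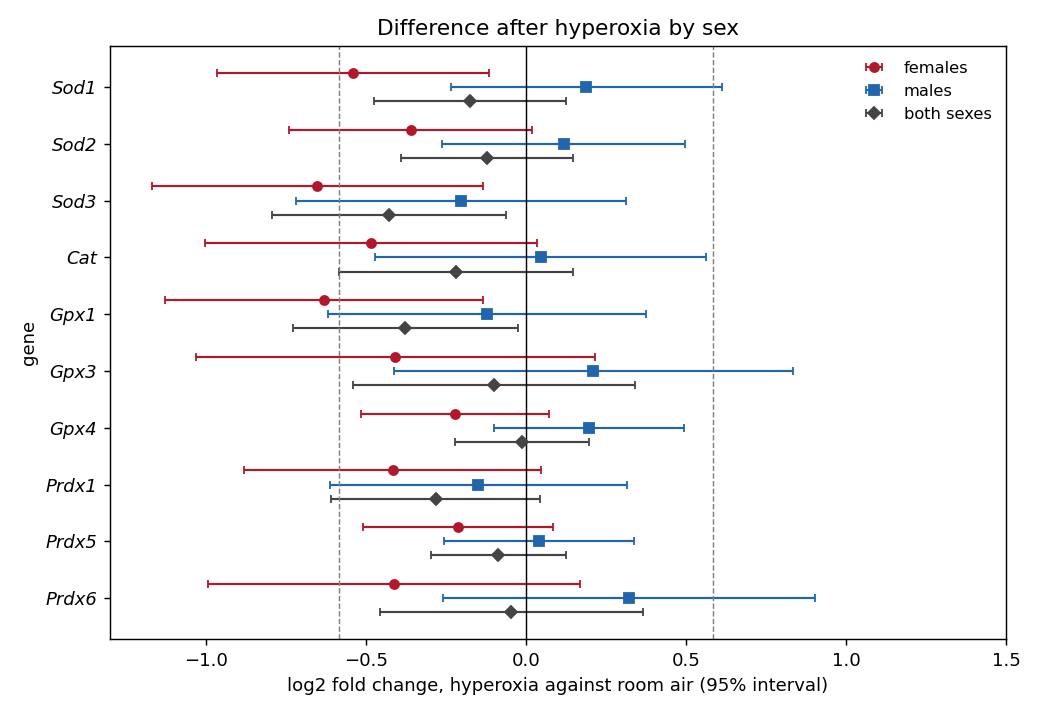
Log2 fold change of each enzyme, hyperoxia against room air, in females (red circles), males (blue squares) and both sexes (grey diamonds). Horizontal bars are 95% intervals from the edgeR fit, and dashed lines mark a 1.5-fold difference. All 10 female estimates lie below 0, and the male estimates run from -0.20 to 0.32.

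Read as a group, the 10 enzymes were called in no comparison: 0 of 10 in both sexes, where 0.0415% of all genes were called, 0 of 10 in females (0.00218% of all genes) and 0 of 10 in males (0% of all genes). At an unadjusted p under 0.05, 3 of the 10 were lower in females (*Sod1*, *Sod3* and *Gpx1*), where 5.28% of all genes were, and 14.4% of the genes with a mean of at least 10 CPM, to which all 10 belong. For both sexes 2 of the 10 were lower at this level (*Sod3* and *Gpx1*), against 2.52% of all genes and 5.85% of those at 10 CPM or more, and in males none was different in either direction, against 2.70%. In females 4 of the 10 had groups that did not overlap (*Sod1*, *Sod3*, *Gpx1* and *Prdx5*, all lower), against 6.42% of all genes and 15.6% of those at 10 CPM or more, and in males none did, against 3.89% of genes that were lower without overlap. The median log2 fold change of the 10 in females was -0.41, beside 0.11 for all genes tested and -0.17 for the 14605 genes with a mean of at least 10 CPM, of which 10403 were below 0. In males the median of the 10 was 0.08, beside -0.01 for all genes and 0.03 for those at 10 CPM or more. The direction of the male median rested on single lungs: leaving out 1 lung at a time moved it from -0.05 to 0.25, with 1 to 6 of the 10 below 0. For both sexes the median was -0.15, beside 0.03 and -0.06. Leaving out 1 lung at a time moved that median from -0.23 to -0.07, with 7 to 10 of the 10 below 0.

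The difference between the sexes in the response to hyperoxia was tested directly, as the female minus the male log2 fold change. All 10 estimates were below 0, with a median of -0.49 beside 0.12 for all genes and -0.21 for genes at 10 CPM or more, of which 10519 of 14605 were below 0. None was called, as was true of 0% of all genes, and the adjusted p was 0.578 or more for every one. *Sod1* (-0.73 ± 0.29, unadjusted p = 0.019 in the edgeR quasi-likelihood test) and *Gpx4* (-0.42 ± 0.20, unadjusted p = 0.048) were below 0 at the unadjusted level, at which 2.40% of all genes and 5.81% of those at 10 CPM or more were. *Prdx6* had the lowest estimate, -0.74 ± 0.40, with an interval from -1.56 to 0.09, and ran from -0.99 without hyperoxia-exposed male 2 to -0.45 without hyperoxia-exposed male 1. Females against males, averaged over the exposures, gave 9 estimates above 0 and 1 below, from -0.06 for *Prdx5* to 0.20 for *Sod3*. None of these was called, against 1.22% of all genes, or had an unadjusted p under 0.05, against 6.88%.

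The number of unwanted-variation factors (RUVr, which takes them from the residuals of a first fit) in the study's model is not given in the sources used here. With 1 such factor the estimates stayed close to those above but their standard errors shrank. *Sod3* then fell in females, by 0.62 on the log2 scale (SE 0.0879, adjusted p = 5.0e-06, edgeR quasi-likelihood test), where 4.14% of all genes and 2.19% of those with a mean of at least 10 CPM were then called. In the same fit, the difference between the sexes was called for *Sod1* (-0.69, adjusted p = 3.1e-05), *Prdx6* (-0.68, adjusted p = 2.6e-05) and *Gpx3* (-0.59, adjusted p = 0.0103), against 4.59% of all genes and 5.31% of those at 10 CPM or more. The same genes were called with 2 and with 3 factors. By the adjusted p alone, with no limit on the fold, 7 of the 10 were lower in females with 1 factor (*Sod1*, *Sod2*, *Sod3*, *Cat*, *Gpx3*, *Prdx1* and *Prdx6*), against 11.1% of all genes and 33.4% of those at 10 CPM or more, and 6 of the 10 had a difference between the sexes below 0 (*Sod1*, *Sod2*, *Sod3*, *Cat*, *Gpx3* and *Prdx6*), against 7.91% and 24.2%. For both sexes 3 of the 10 were lower in this way (*Sod3*, *Cat* and *Prdx1*), against 4.04% of all genes and 12.3% of those at 10 CPM or more, and in males none was, against 0.0415% of all genes. These members changed with the number of factors: for both sexes *Sod1* took the place of *Sod3* with 3 factors, and *Sod3* no longer passed for the difference between the sexes. In males *Prdx6* was higher with 2 factors, against 0.284% of all genes, and with 3, against 0.498%. Between females and males *Sod3* was higher in females with 1 and with 2 factors, against 3.98% and 4.24% of all genes, and *Gpx3* and *Prdx6* with 3, against 5.39%.

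Across lungs, the 10 enzymes moved together. Over the 45 pairs, Pearson's r of log2 CPM ran from 0.59 for *Gpx1* and *Prdx5* to 0.96 for *Gpx3* and *Prdx6*, with a median of 0.81 (n = 12 lungs), and with each group's mean removed the median was 0.82. Their summed level was 1732, 1939 and 1216 CPM in the room air females, 1300, 1103 and 1130 CPM in the hyperoxia-exposed females, 941, 1485 and 1235 CPM in the room air males, and 1673, 905 and 1360 CPM in the hyperoxia-exposed males. The highest sum, in room air female 5, belonged to the lung with the lowest receptor share, and the lowest sum, in hyperoxia-exposed male 2, to the lung with the highest. The correlation of a gene's level with the receptor share, both on a log2 scale, ran from -0.98 for *Sod1* to -0.75 for *Prdx5* (n = 12 lungs). Among the related genes named below, several had values of the same size, such as -0.90 for *Gclm*, -0.89 for *Prdx4* and -0.87 for *Txn1*. Others did not, with -0.55 for *Prdx2*, 0.02 for *Pstk*, 0.17 for *Nox1* and 0.88 for *Lrp8*. The levels also followed the summed alveolar type 2 markers, with r from 0.71 for *Prdx5* to 0.97 for *Sod1*, and in bulk tissue fewer cells of a type cannot be told apart from less RNA per cell. None of the 9 type 2 markers was called, but all 9 estimates were below 0 in females, with a median of -0.56, and 8 of 9 were above 0 in males, with a median of 0.17. Other lists differed in how far they lay below 0 in females: 5 of 5 for club cells (median -0.58), 8 of 8 for endothelium (median -0.40) and 6 of 7 for cardiac muscle (median -0.46), but 5 of 6 for smooth muscle (median -0.19), 6 of 10 for neutrophils (median -0.18), 7 of 11 for alveolar macrophages (median -0.02) and 2 of 9 for skeletal muscle (median 0.25). None of these markers was called. The points of these correlations share library, depth and scaling. When the receptor share was added to the model, the median log2 fold change of the 10 in females was -0.06, with 7 estimates below 0 and 3 above. The median difference between the sexes was then -0.01, with 5 on each side. The share itself differed between the exposures in females, with means of 0.590% in room air and 0.812% after hyperoxia. This fit therefore cannot tell the share and the exposure apart in females. With the receptor background subtracted from the counts and TMM scaling in place of upper-quartile, all 10 estimates were below 0 in females, with a median of -0.24, against -0.46 with TMM scaling alone.

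**Figure D3:**
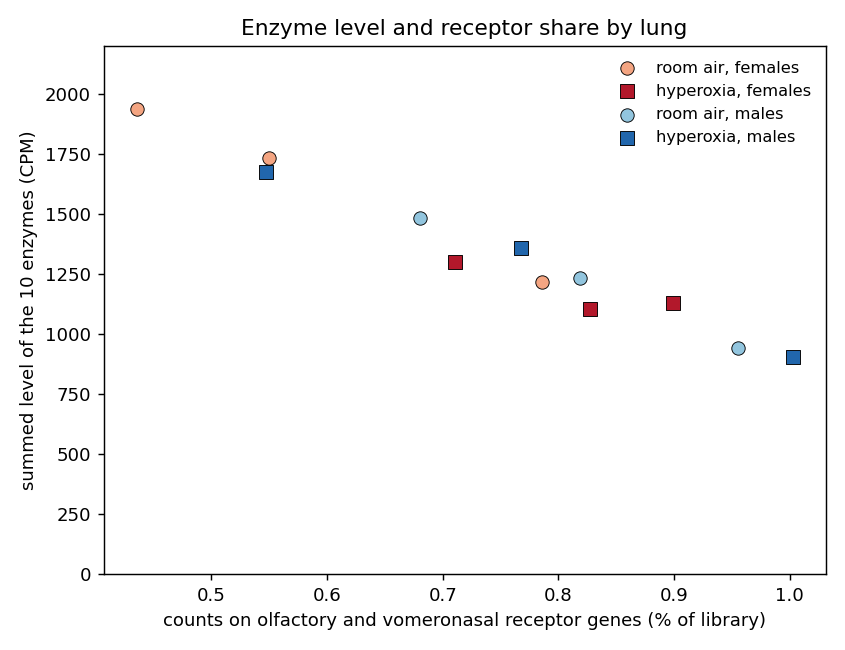
Summed level of the 10 enzymes (CPM, vertical) against the percentage of counts on olfactory and vomeronasal receptor genes (horizontal) in each of the 12 lungs, coloured by group. The summed level runs from 1939 CPM at a receptor share of 0.435% to 905 CPM at 1.00%, and lungs of all 4 groups lie along the same band.

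**Figure D4:**
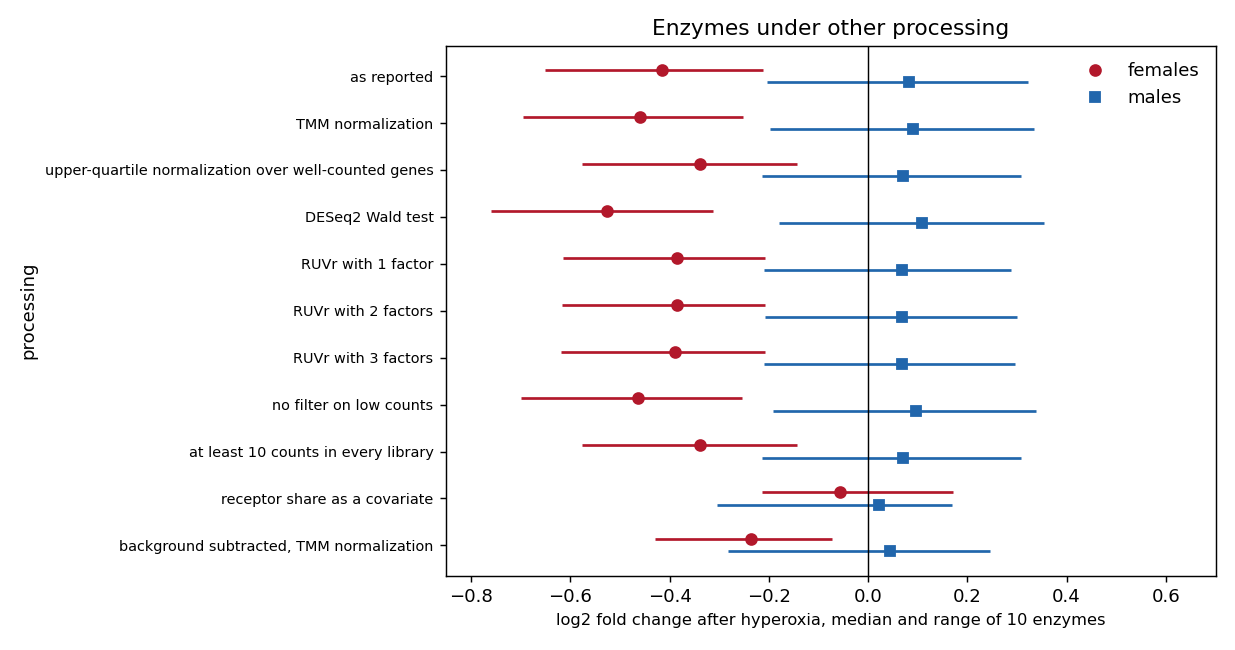
Median (points) and range (bars) of the log2 fold changes of the 10 enzymes after hyperoxia, in females and in males, under the settings named on the vertical axis. The female median lies between -0.53 and -0.24 except with the receptor share as a covariate, where it is -0.06, and the male median lies between 0.02 and 0.11.

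How the counts of the 10 enzymes were divided among them does not depend on library size. *Gpx3* held 28.3% ± 2.08 (SD, n = 12) of these counts, *Prdx6* 21.0% ± 1.56, *Sod3* 13.8% ± 1.55 and *Cat* 11.97% ± 0.61. The share of *Sod3* was 14.9% ± 1.08 in the 6 room air lungs and 12.7% ± 1.07 in the 6 hyperoxia-exposed lungs. In males it was 15.7%, 14.8% and 14.3% in room air against 11.2%, 12.9% and 12.3% after hyperoxia, without overlap, and in females 16.6%, 14.1% and 13.8% against 12.2%, 12.9% and 14.5%, with overlap. The share of *Gpx1* was 7.91% ± 0.49 in room air and 6.88% ± 1.13 after hyperoxia. *Prdx6* went the other way, 20.1% ± 1.23 in room air and 21.95% ± 1.34 after hyperoxia, and in males 18.4% to 20.2% against 20.8% to 24.4%. The *Prdx6* shares of females overlapped, at 19.2% to 21.8% in room air and 21.0% to 22.1% after hyperoxia. In males the shares of the remaining enzymes overlapped between the exposures, and in females those of every enzyme did. These shares are given as a description and were not tested, since a rise in one lowers the others.

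**Figure D5:**
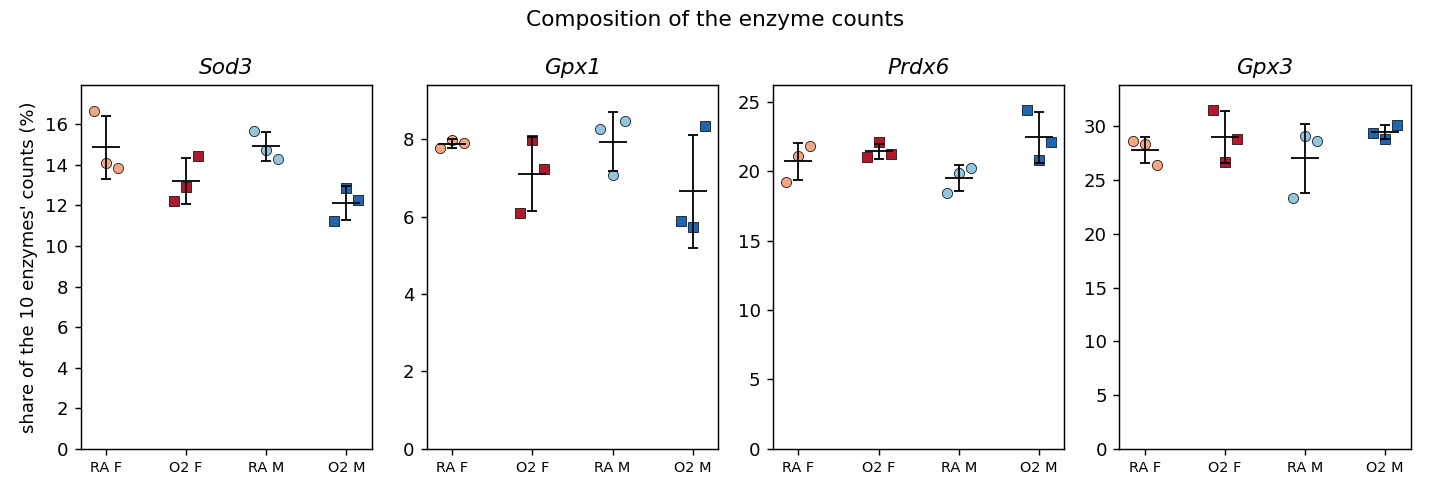
Share of the counts of the 10 enzymes held by *Sod3*, *Gpx1*, *Prdx6* and *Gpx3* in each lung (%, axis from 0), with mean ± SD of 3 lungs. *Sod3* held 14.3% to 15.7% in room air males and 11.2% to 12.9% in hyperoxia-exposed males. In females its shares overlapped, at 13.8% to 16.6% in room air and 12.2% to 14.5% after hyperoxia.

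For each enzyme, the genes whose log2 CPM followed it most closely over the 12 lungs were sought among the genes with a mean of at least 10 CPM. They were *Lrrk2* and *Nfatc1* for *Sod1* (r = 0.99 for both), *Capn7* and *Arih2* for *Sod2* (0.97 for both), and *Gclm* and *Fkbp1a* for *Sod3* (0.98 for both). *Hipk2* and *Spop* followed *Cat* (0.99 for both), *Gm26878* and *Cfl1* followed *Gpx1* (0.97 and 0.96), *Mxd4* and *Robo4* followed *Gpx3* (0.99 for both), and *Nucb2* and *Neurl4* followed *Gpx4* (0.97 and 0.95). The closest to *Prdx1* were *Calm2* and *Gm14586* (0.97 and 0.96), to *Prdx5* *Polr3f* and *Sharpin* (0.97 and 0.96), and to *Prdx6* *Gramd2* and *Zfp970* (0.98 for both). No enzyme of the 10 was among the closest genes of another, and only *Gclm*, the modifier subunit of the enzyme that makes glutathione's precursor, was on the lists of related genes below.

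The rest of the family was 9 genes: *Prdx2*, *Prdx3*, *Prdx4*, 5 further glutathione peroxidases and *Ccs*, the copper chaperone of SOD1. None was called after hyperoxia in females, males or both sexes, and 7 of the 9 estimates for both sexes were below 0. *Prdx2*, a peroxiredoxin that is among the most abundant proteins of red cells, came closest. It had 57.6, 57.4 and 40.8 CPM in the room air females and 29.2, 29.9 and 33.6 CPM in the hyperoxia-exposed females. The room air males had 44.3, 46.3 and 45.2 CPM and the hyperoxia-exposed males 34.0, 30.2 and 39.7 CPM. All 6 exposed lungs lay below all 6 room air lungs, as was true of 0.120% of all genes. The log2 fold change for both sexes was -0.57 ± 0.12 (adjusted p = 0.065, edgeR quasi-likelihood test), from -0.64 to -0.50 over 23 alternatives, in 2 of which it was called (DESeq2, and without room air female 6). In females it was -0.75 ± 0.17 (adjusted p = 0.152), called in 8 of 24 alternatives, and in males -0.38 ± 0.17 (adjusted p = 1.00), called in none. For both sexes the fold of 0.675 lay just inside the 1.5-fold limit, so no p-value could have given a call in the main fit. With 2 RUVr factors, which shrink the standard errors, *Prdx2* had an adjusted p of 1.4e-08 (edgeR quasi-likelihood test) for both sexes and was not called. *Prdx3*, the mitochondrial peroxiredoxin, had -0.34 ± 0.11 (adjusted p = 0.841) and *Prdx4*, that of the endoplasmic reticulum, -0.31 ± 0.12 (adjusted p = 0.927).

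Red cell markers moved with exposure in the same lungs. The summed level of the 7 red cell markers (*Hba-a1*, *Hba-a2*, *Hbb-bs*, *Hbb-bt*, *Alas2*, *Slc4a1* and *Ermap*) was 5267 to 8159 CPM in the 6 room air lungs and 1317 to 4817 CPM in the 6 hyperoxia-exposed lungs, with no marker at 0 in any lung. For both sexes 3 of the 7 fell at the threshold (*Hba-a2*, *Hbb-bt* and *Alas2*), against 0.0415% of all genes called, and the median log2 fold change was -1.17. Over 23 alternatives *Hba-a2* was called in 9, *Hbb-bt* in 12 and *Alas2* in 16, and all 3 lost the call with 2 and 3 RUVr factors and with the receptor share in the model. All 3 also lost it without room air male 5, room air female 2, hyperoxia-exposed female 2 or hyperoxia-exposed female 5, each left out alone, while their estimates stayed at -1.01 or below. Over the 12 lungs, the log2 level of *Prdx2* followed the summed red cell markers with r = 0.86, *Gpx1* with 0.63, *Sod3* with 0.56 and *Cat* with 0.28, and the other 7 enzymes had r of 0.14 to 0.35. The part of red cells in the values of *Prdx2* and *Gpx1* was not tested.

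Of 25 genes that supply or use glutathione, thioredoxin and NADPH, none was called in any comparison. In females 19 of 25 estimates were below 0, with a median of -0.19. The 3 with the smallest p for both sexes were *Gclm* (-0.30 ± 0.12), thioredoxin 1 (*Txn1*, -0.30 ± 0.12) and malic enzyme 1 (*Me1*, -0.28 ± 0.12), each with an adjusted p of 0.927 (edgeR quasi-likelihood test). Of 9 genes for selenoprotein synthesis and selenium supply, on which the glutathione peroxidases depend, none was called. The 3 with the smallest p were *Sephs2* (-0.30 ± 0.15), which makes the selenium donor, *Pstk* (0.15 ± 0.12) and the selenoprotein P receptor *Lrp8* (0.15 ± 0.12). Receptor-level background would account for 80.6% of the *Pstk* counts.

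Of 17 genes for oxidant-producing enzymes and their subunits, none was called after hyperoxia. The phagocyte NADPH oxidase subunit *Cybb* had 86.4, 89.8 and 90.7 CPM in the room air females and 59.9, 56.9 and 47.7 CPM in the hyperoxia-exposed females, without overlap. In males *Cybb* had 57.4, 74.9 and 62.4 CPM in room air and 63.9, 38.3 and 50.2 CPM after hyperoxia, with overlap. Its log2 fold change was -0.70 ± 0.19 (adjusted p = 0.281) in females, called in 4 of 24 alternatives, and -0.52 ± 0.14 (adjusted p = 0.403) for both sexes. *Ncf1* (-0.24 ± 0.10) and *Rac2* (-0.28 ± 0.12), which belong to the same oxidase, were the next for both sexes. The superoxide-producing *Nox1*, on chromosome X, was called between the sexes: it was higher in females than in males by a log2 fold change of 0.98 ± 0.15 (adjusted p = 1.9e-04), and was called in 22 of 22 alternatives, against 1.22% of all genes called. Its estimate ran from 0.84 to 2.23 over these alternatives, the highest with background subtracted and TMM scaling. After hyperoxia its log2 fold change was 0.36 ± 0.20 in females (adjusted p = 0.426, edgeR quasi-likelihood test) and -0.16 ± 0.22 in males, neither of them called. Its levels were low, at 7.82 to 14.9 CPM in the 6 female lungs and 4.95 to 7.39 CPM in the 6 male lungs, and receptor-level background would account for 45.4% of its counts.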

How the data were processed

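Per the labels and the study's methods, reads went through Trim Galore and STAR (mm10, which is GRCm38), and the authors deposited unnormalised featureCounts read counts per gene. Versions and the strand setting are not given in the sources used here. The labels give NEBNext Ultra II Directional with rRNA depletion as the library kit, the methods QIAseq Stranded Total RNA. The study's ComBat-seq, upper-quartile and RUVr steps are not in these counts.

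Each of the 12 columns matched 1 sample. Group means were fitted with edgeR 4.0.16 (robust quasi-likelihood, upper-quartile scaling, R 4.3.3) to the 45828 genes passing filterByExpr, and p-values were Benjamini-Hochberg adjusted over all of them. A gene was called when the adjusted p was below 0.05 and the fold exceeded 1.5. Exposure was compared within females, within males and averaged over the sexes, and the difference between the sexes was tested as an interaction. The labels number the lungs without saying how they relate, so p-values measure the spread between these lungs. The fit was tested on simulated data.

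CPM used upper-quartile library sizes, and CPM per kb the exon length in GENCODE vM21, which matched 55141 of 55487 genes. Receptor-level background was the median reads per kb of receptor genes times exon length. Correlations used log2(CPM + 0.5). Figures were drawn with matplotlib 3.10.9.

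The 10 enzymes and the lists were chosen with earlier results of these data known. One item of the marker lists is not reported here. Also named were, from 4 lists of related genes, each gene called and the 3 with the smallest p for both sexes, and the 2 genes with the highest r to each enzyme. Alternatives were TMM, upper-quartile scaling over well-counted genes, DESeq2 1.42.0, RUVr with 1 to 3 factors, 2 other filters, the receptor share in the model, the adjusted p alone, a replicate block, leaving out each lung, 1 sex alone and, chosen after the data were seen, background subtraction with TMM.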

Additional observations from a re-analysis of the deposited data

How the results depend on the processing

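Without RUVr factors, 0 of the 10 enzymes were called in any comparison under any alternative. With RUVr, 1 was called in females with 1, 2 and 3 factors (*Sod3*), and 3 for the difference between the sexes (*Sod1*, *Gpx3* and *Prdx6*). With 1, 2 and 3 factors, all-gene calls were 92, 118 and 130 for both sexes, 1898, 1945 and 2051 in females, 16, 71 and 86 in males, 2102, 2223 and 2393 for the difference between the sexes, and 1006, 1044 and 1096 for females against males. The factors are built from the residuals of the fit that they enter, which shrinks the standard errors.

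Other counts over all genes also moved. For females against males they were 266 with at least 10 counts in every library, 1004 without a filter and 976 when the receptor share was a covariate. For both sexes DESeq2 called 40. In females the count was 0 with TMM and 0 with background subtracted and TMM, 89 with DESeq2, 8 without a filter, 80 with the 6 female lungs alone and 21 with the receptor share. In males it was 2 with the 6 male lungs alone and 6 with the receptor share. The cause was not tested.

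When the receptor share was a covariate, these log2 fold changes turned direction, none of them called: for both sexes *Gpx3* (0.13), *Gpx4* (0.057) and *Prdx6* (0.14); in females *Gpx3* (0.17), *Prdx1* (0.071) and *Prdx6* (0.12); in males *Cat* (-0.091); for the difference between the sexes *Cat* (0.086), *Gpx1* (0.030), *Gpx3* (0.089), *Prdx1* (0.35) and *Sod3* (0.090); and for females against males *Cat* (-0.073), *Gpx3* (-0.064), *Prdx1* (-0.029), *Prdx6* (-0.045), *Sod1* (-0.042) and *Sod2* (-0.035). With the receptor share in the model, the lowest of the 10 female estimates was -0.21, against -0.65 in the main fit. With background subtracted and TMM, *Gpx4* (0.048) and *Prdx6* (0.026) turned for both sexes, *Cat* (-0.037) and *Prdx5* (-0.0067) in males, and *Prdx1* (0.041) for the difference between the sexes. *Gpx4* for both sexes was also 0.018 with at least 10 counts in every library and 0.018 with upper-quartile normalization over well-counted genes.

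Leaving out each lung in turn, all 10 stayed below 0 in females, with medians of -0.63 to -0.25. All-gene calls then ran from 3 to 37 for both sexes, the least without hyperoxia-exposed female 5 and the most without hyperoxia-exposed male 1, from 0 to 206 in females, the most without room air female 6, and from 0 to 1 in males. In females *Sod3* ran from -0.87 to -0.51, *Gpx1* from -0.81 to -0.48 and *Sod1* from -0.70 to -0.35, the lowest each without room air female 6. *Cat* ran from -0.64 to -0.38 in females, *Gpx4* from -0.29 to -0.17 and *Prdx5* from -0.24 to -0.16. For both sexes *Sod1* ran from -0.27 to -0.081, *Sod2* from -0.19 to -0.046, *Sod3* from -0.53 to -0.34, *Cat* from -0.35 to -0.11, *Gpx1* from -0.49 to -0.24, *Prdx1* from -0.40 to -0.17 and *Prdx5* from -0.14 to -0.048. In males *Sod1* ran from 0.012 to 0.38 and *Sod3* from -0.35 to -0.020, with the ends set by hyperoxia-exposed males 1 and 2. Log2 fold changes that crossed 0 ran, for both sexes, from -0.21 to 0.019 for *Gpx3*, from -0.064 to 0.034 for *Gpx4* and from -0.19 to 0.079 for *Prdx6*. In males they ran from -0.22 to 0.26 for *Cat*, -0.34 to 0.15 for *Gpx1*, -0.017 to 0.45 for *Gpx3*, -0.38 to 0.015 for *Prdx1*, -0.076 to 0.12 for *Prdx5* and -0.021 to 0.24 for *Sod2*. For females against males they ran from -0.013 to 0.23 for *Cat*, -0.094 to 0.0055 for *Prdx5*, -0.0023 to 0.27 for *Prdx6* and -0.0011 to 0.15 for *Sod2*.

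Room air and hyperoxia-exposed females share the animal numbers 2 and 5, and the male groups number 1 alone, too few for a block. Deviations from the group means over 14605 genes correlated at 0.22 for number 2 and -0.33 for number 5 in females and at -0.49 for number 1 in males. The labels do not tie the numbers to a litter or day, so they were not treated as pairs. With the female numbers as a replicate block, 0 enzymes were called, 1 gene was called in females, and the median of the 10 in females was -0.55.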
